A study of Homo sapiens with 24 samples.

Results

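The direct comparison of PI103 with PD0325901 sets 8 of 24 RNA sequencing libraries against each other. All come from AGS, an established cell line from a human gastric adenocarcinoma, with WT as its genotype label. The 4 libraries of PI103 and the 4 of PD0325901 were chosen by the treatment in their titles, because the separate treatment labels number both compound names upward from replicate 2 on, and every gene of the count table outside the 5 closing tallies was considered. PI103 blocks the class I PI3 kinases and mTOR and was given at 0.7 µM, and PD0325901, which blocks MEK, at 0.035 µM, each alone for 24 h in medium with serum. The concentrations differ and neither is a dose series, so a difference between the groups is between these 2 exposures. The 4 control libraries, whose treatment label is none, serve as the untreated level, and no label says whether they received the solvent. All groups are the same line, and each has 4 biological replicates. The series title places the data in a study of how kinase inhibitors change metabolism. The question here is which genes PI3 kinase and mTOR inhibition moved in a way that MEK inhibition did not.

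Both drugs act below growth factor receptors and RAS. MEK phosphorylates ERK, which drives immediate-early genes and, through them, its own inhibitors: the DUSP phosphatases, the Sprouty proteins and the SPRED proteins. PI3 kinase works through AKT and mTOR. mTOR complex 1 raises translation of the transcription factor ATF4, which turns on amino acid uptake, amino acid synthesis and aminoacyl-tRNA synthetases, and AKT keeps FOXO factors out of the nucleus.

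The 8 libraries held 51.4 to 69.9 M counts in genes, with a mean of 60.4 ± 3.65 M (SD, n = 4) for PI103 and 60.6 ± 8.44 M (SD, n = 4) for PD0325901. Over these libraries a principal component analysis put 70.8% of the variance on a first axis that separated the groups, with PI103 between 42.9 and 45.7 and PD0325901 between -59.03 and -37.4. PD0325901 replicate 2 stood apart, at -59.03 on that axis against -41.02 to -37.4 for the other PD0325901 libraries. The epithelial markers KRT8, KRT18, KRT19 and EPCAM were all present, and their summed level was 5646 to 6464 CPM (counts scaled to library size) with PI103 and 5777 to 7168 CPM with PD0325901. Of 12 fibroblast, leukocyte and endothelial markers, COL1A1, COL3A1 and CD68 alone exceeded 1 CPM in any of the 8 libraries, and DCN and CD3E were at 0 in all of them. The summed fibroblast markers, nearly all COL1A1, were 32.3 to 34.4 CPM with PI103 and 17.9 to 22.1 CPM with PD0325901. Their part in any result was not tested.

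Of 13947 genes tested, 6208 (44.5%) differed between the treatments at an adjusted p under 0.05 in edgeR's quasi-likelihood F test, whose Benjamini-Hochberg adjusted p is the one given throughout. With PI103, 3020 genes (21.7%) were higher than with PD0325901 and 3188 (22.9%) were lower. Among called genes, 558 were higher by at least 1 on the log2 scale and 896 lower by as much, and 148 and 335 passed 2. The 4 values of one treatment lay entirely above the 4 of the other in 5539 genes (39.7%). Without PD0325901 replicate 2, 5802 genes were called, 2526 higher and 3276 lower. When the test itself asked for a change of more than 1, 656 genes passed, 211 higher with PI103 and 445 lower. Against the 4 control libraries the same fit called 51.4% of genes for PI103 (26.2% higher, 25.2% lower) and 58.6% for PD0325901 (28.7% higher, 29.9% lower). Those comparisons share the control libraries, so their values stand side by side below only to show on which side of the untreated level a gene lay. Unless another quantity is named, a difference below is a log2 fold change of PI103 minus PD0325901, with its standard error (SE), and a change is a log2 fold change against control. The median difference over all tested genes was 0.013.

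**Figure D1:**
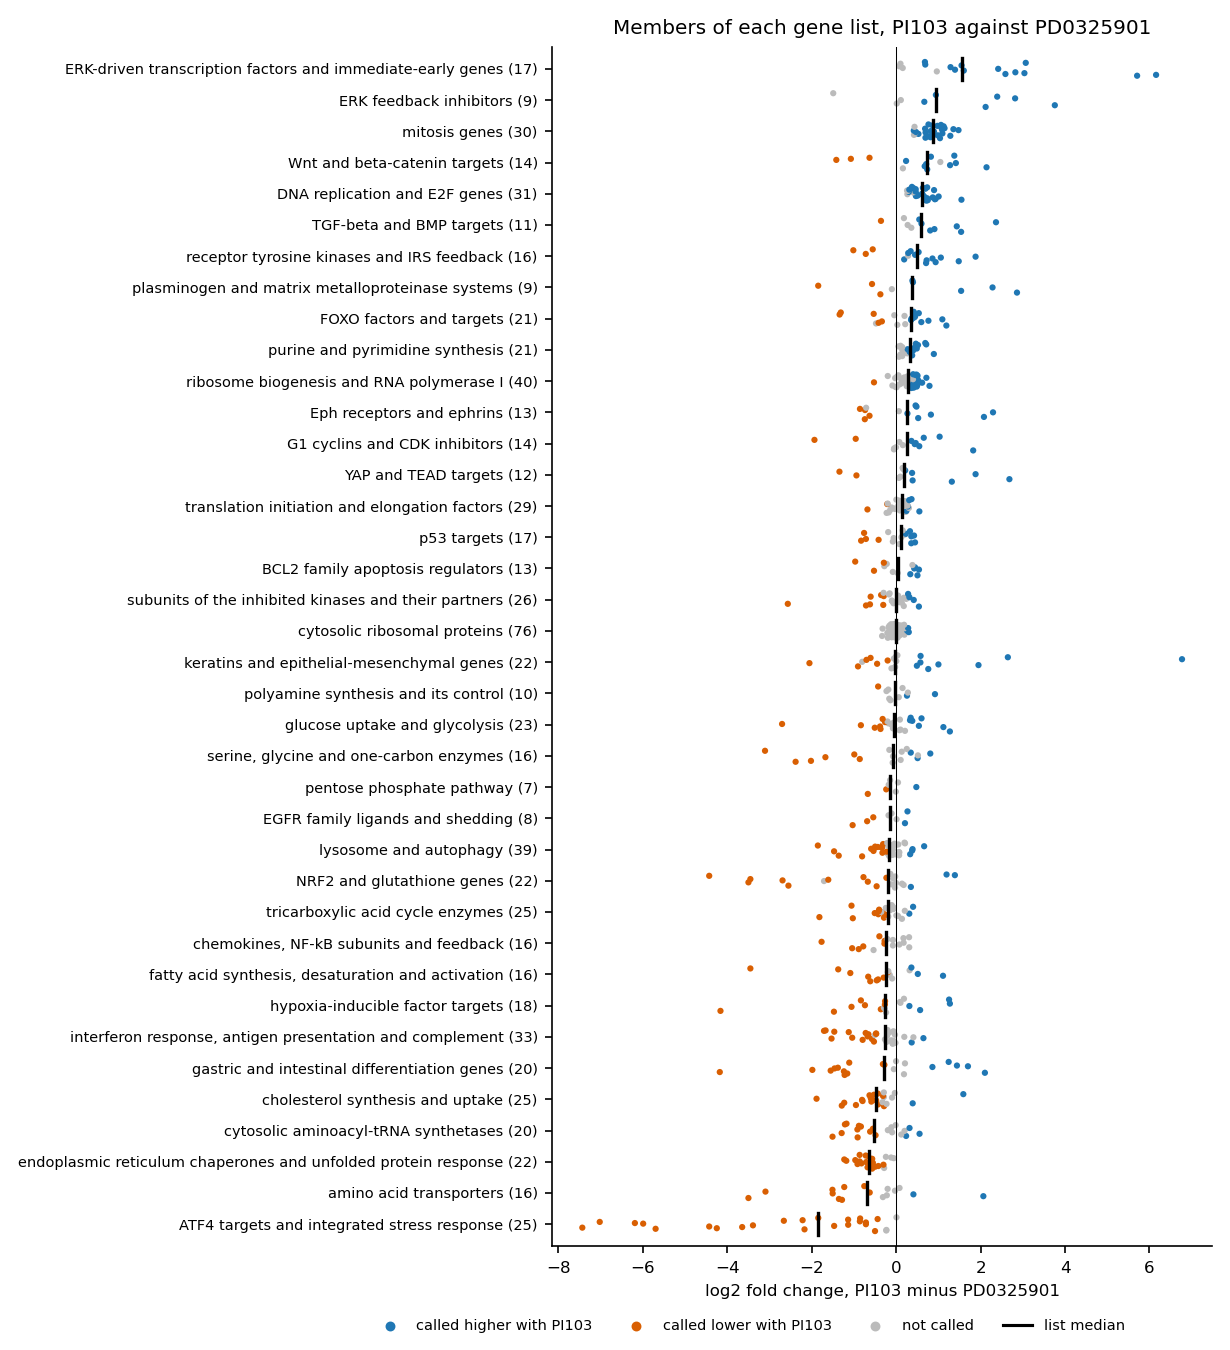
Each point is 1 tested member of a gene list and its horizontal position is the log2 fold change of PI103 minus PD0325901. Rows are lists with the number of tested members, ordered by their median (black bar), and colour gives the call at an adjusted p under 0.05. Fitted values beyond 6 in size rest in part on genes with few reads. ERK-driven genes lie at the top with a median of 1.55 and ATF4 targets at the bottom with -1.85.

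The feedback inhibitors of ERK were higher with PI103 than with PD0325901. Of the 10 listed, 9 were tested, and DUSP5 is listed at 0 in the 8 libraries. EIF4A1, which every cell uses, is also listed at 0, so a 0 in this table does not show that a gene was silent. Of those tested, 6 were called higher with PI103, 0 lower and 3 not called, with a median of 0.94. DUSP6, the cytoplasmic phosphatase of ERK, held 57.7, 44.5, 47.4 and 46.6 CPM in the 4 PI103 libraries (replicates 1 to 4, as in every such list) and 3.71, 1.72, 4.24 and 4.75 CPM with PD0325901. Every PI103 library was above every PD0325901 library, and PD0325901 replicate 2 was the lowest. The difference was 3.76 (adjusted p 1.46e-09, SE 0.308). DUSP6 changed by -1.43 with PI103 and -5.18 with PD0325901, so both drugs lowered it, PD0325901 further. An antisense gene lies opposite 40.5% of its exon length, and whether reads were counted by strand is not given in the sources used here, so reads of such pairs cannot be told apart. The same holds, at 10.1% to 52.7% of exon length, for RPL10, BCL2L1, ARG2, PIK3CA, DDIT3, WIPI1, VIM, RPE, MCM2, ICAM1, ATF5, PSMB8, RBL2, PYCR1, HMGCS1, ADAM17, EIF4B, CEBPB, BCL2L11, WARS, CCND1 and ALDOC, and genes on the same strand share 14.1% to 20.2% of the exons of RRM2, PIK3R3, RPL13A, EFNA4 and PYCR1. SPRY4, a Sprouty inhibitor of RAS signalling, held 19.4, 17.8, 17.2 and 18.01 CPM with PI103 and 3.32, 1.17, 2.58 and 3.19 CPM with PD0325901, a difference of 2.82 (adjusted p 2.49e-08, SE 0.282). Its changes against control were -1.28 with PI103 and -4.10 with PD0325901.

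DUSP4, a nuclear phosphatase of ERK, behaved otherwise with PI103: it held 443, 409, 413 and 384 CPM, against 359, 368, 361 and 451 CPM in control and 97.6, 63.7, 103 and 115 CPM with PD0325901. Its difference between the drugs was 2.12 (adjusted p 1.07e-09, SE 0.177), and its changes were 0.10 (not called, adjusted p 0.644) with PI103 and -2.02 with PD0325901. SPRED1 and SPRED2, which hold RAF in check, differed by 2.39 (adjusted p 9.66e-08, SE 0.260) and 0.94 (adjusted p 9.73e-05, SE 0.173), and neither change against control was called with PI103 (-0.49 and -0.34, adjusted p 0.0969 and 0.102). SPRY1 differed by 0.67 (adjusted p 3.44e-05). The members without a call were SPRY2 with 0.11 (adjusted p 0.548), DUSP7 with 0.015 (adjusted p 0.938) and SPRED3 with -1.49 (adjusted p 0.0995). SPRED3 had 7 reads in the PI103 libraries together and 21 with PD0325901. With a filter of 1 CPM in 4 libraries, which drops SPRED3, the median of the list was 1.53, and without PD0325901 replicate 2 it was 0.75 with 6 members called higher and 0 lower.

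Transcription factors and immediate-early genes driven by ERK showed the same direction: 13 of 17 tested members were called higher with PI103, 0 lower and 4 not called, with a median log2 difference of 1.55. The calls against control were 2 higher and 14 lower with PI103 (median -1.54), and 0 higher and 17 lower with PD0325901 (median -3.68). ETV4, an ETS factor of the PEA3 group, held 83.8, 81.3, 75.1 and 80.03 CPM with PI103, 1.5, 0.343, 1.35 and 1.27 CPM with PD0325901 and 71.3, 70.01, 56.3 and 74.3 CPM in control. The PI103 libraries were all above the control libraries and the PD0325901 libraries were far below both, with a difference of 6.16 (adjusted p 2.31e-10, SE 0.432). ETV4 changed by 0.24 (not called, adjusted p 0.562) with PI103 and -5.92 with PD0325901. ETV1, of the same group, differed by 5.71 (adjusted p 2.54e-11, SE 0.399), with 540 reads in the PI103 libraries together and 10 with PD0325901. ETV5, the third of the group, held 50.3, 51.3, 50.2 and 45.96 CPM with PI103 and 13.7, 1.49, 9.32 and 8.44 CPM with PD0325901, where replicate 2 lay far below the others, and differed by 2.59 (adjusted p 0.00015, SE 0.470). Unlike ETV4, ETV5 was also lower with PI103 than in control (-1.37).

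EGR1, a zinc finger factor induced within minutes by growth factors, held 22.7, 11.9, 8.37 and 10.7 CPM with PI103 and 2.55, 0.790, 1.53 and 1.71 CPM with PD0325901, against 157, 240.3, 158 and 249 CPM in control. All treated libraries were far below control, and the PI103 libraries were all above those of PD0325901, with a difference of 3.04 (adjusted p 4.95e-05, SE 0.497). FOSL1, an AP-1 subunit, and MAFF, a small MAF factor, differed by 2.42 (adjusted p 9.35e-08, SE 0.264) and 3.07 (adjusted p 4.56e-10, SE 0.239), and both were below control with each drug, FOSL1 by -1.68 with PI103 and -4.10 with PD0325901 and MAFF by -1.21 with PI103 and -4.28 with PD0325901. MYC, which drives growth and ribosome genes, held 153, 152, 136 and 133 CPM with PI103, 102, 67.5, 98.99 and 89.8 CPM with PD0325901 and 301, 294, 247 and 329.8 CPM in control. Its difference was 0.68 (adjusted p 2.71e-05, SE 0.115). CCND1, cyclin D1 of the G1 phase, held 1162, 1050.0, 1075 and 979 CPM with PI103 and 372, 222, 292 and 318 CPM with PD0325901, and differed by 1.82 (adjusted p 1.45e-09, SE 0.160). Its changes were 0.26 (not called, adjusted p 0.17) with PI103 and -1.57 with PD0325901.

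EGR1 is the ERK-driven gene shown here with its promoter, because serum response factor and its ETS partners act through CArG boxes there. The stretch is from RefSeq's GRCh38.p14 promoter table, written 5′ to 3′ on the gene's strand, with CArG boxes in capitals (CC, 6 bases of A or T, GG, on either strand).

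EGR1, chr5:138465344-138465435, plus strand: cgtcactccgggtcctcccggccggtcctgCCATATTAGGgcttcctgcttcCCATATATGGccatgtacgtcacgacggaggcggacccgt

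The 2 boxes begin -105 and -83 bases from the annotated start, which is counted as 0. Among the promoters of the 11 tested members of the list found in that table, EGR1 alone held a box in the 300 bases from 250 before to 50 after the start, or 9.09%, against 1.29% of all 35116 promoters. None of the 8 feedback inhibitors found there held one. Only the first promoter of each listed gene was searched, and all promoters were not matched to the lists by gene type or level.

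**Figure D2:**
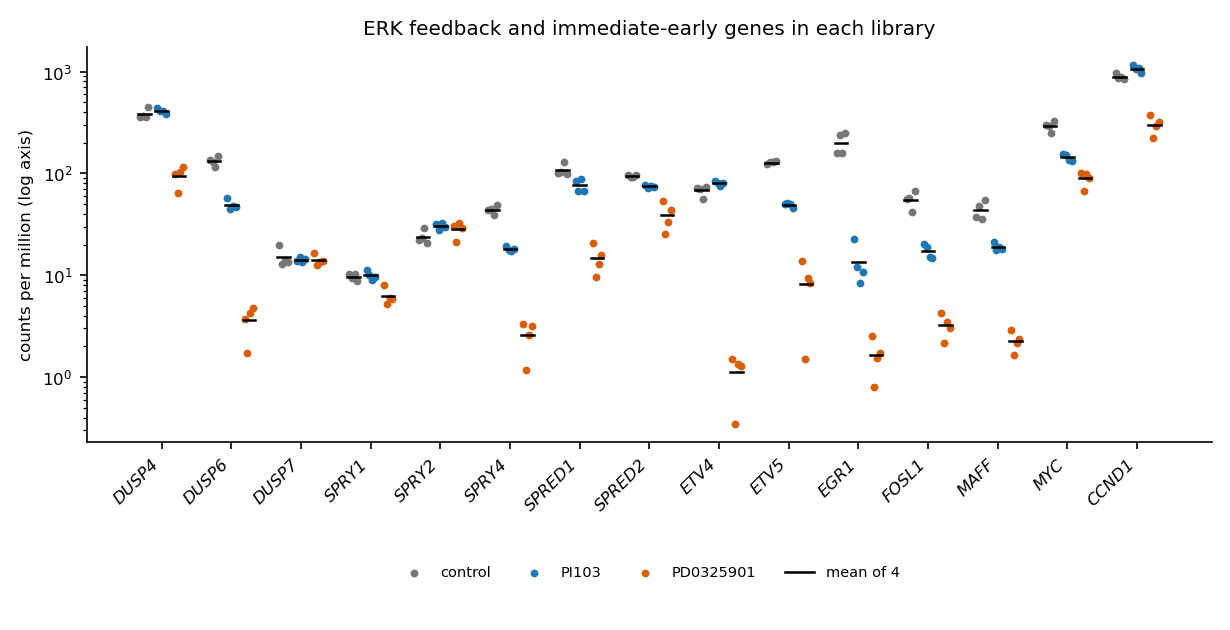
CPM (log axis) of ERK feedback and immediate-early genes in each of 4 libraries of control, PI103 and PD0325901, with black bars at the means. The PI103 libraries of DUSP4 overlap control, those of ETV4 and CCND1 lie above it, and the PD0325901 libraries of all 3 lie below it, while EGR1 is far below control with both.

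The genes with the largest differences were ranked among calls with a mean of at least 5 CPM and no overlap of the 2 groups, so that ETV1 and CLDN2, which lie below that level, are not among them. In the 12 highest with PI103 relative to PD0325901, the largest difference after ETV4 was in TLR4, the receptor of bacterial lipopolysaccharide. TLR4 held 89.3, 79.1, 81.5 and 77.5 CPM with PI103, 2.21, 0.704, 1.74 and 2.92 CPM with PD0325901 and 40.5, 44.4, 53.8 and 48.3 CPM in control. The control libraries lay between the 2 treatments, which the ranking rule keeps apart, and the difference was 5.43 (adjusted p 3.05e-11, SE 0.344). TNS4, a focal adhesion protein of the tensin family, held 498, 499, 490.2 and 491 CPM with PI103 and 46.9, 13.1, 28.2 and 34.1 CPM with PD0325901, a difference of 4.02 (adjusted p 2.11e-08, SE 0.381), and its changes were -0.48 (not called, adjusted p 0.247) with PI103 and -4.49 with PD0325901. EMP1, an epithelial membrane protein, moved in opposite directions: 51.2, 38.6, 46.1 and 38.1 CPM with PI103 and 4.05, 2.35, 3.58 and 3.33 CPM with PD0325901 lay on either side of 16.02, 13.9, 14.4 and 13.5 CPM in control. Its difference was 3.71 (adjusted p 7.19e-14, SE 0.170), and it rose by 1.59 with PI103 and changed by -2.12 with PD0325901. CACNG6, a calcium channel subunit, and PRR9, a proline-rich protein, also lay on either side of control. CACNG6 differed by 2.85 (adjusted p 8.16e-13, SE 0.161), with changes of 0.98 with PI103 and -1.87 with PD0325901, and PRR9 by 3.46 (adjusted p 1.79e-09, SE 0.295), with 0.89 with PI103 and -2.57 with PD0325901.

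UBASH3B, a phosphatase that acts on tyrosine kinases, and TIAM1, an exchange factor of RAC1, were not called against control with PI103 and fell with PD0325901. UBASH3B differed by 3.67 (adjusted p 2.37e-09, SE 0.318), with changes of -0.36 (not called, adjusted p 0.282) with PI103 and -4.03 with PD0325901. TIAM1 differed by 3.59 (adjusted p 9.34e-10, SE 0.293), with 0.43 (not called, adjusted p 0.166) with PI103 and -3.17 with PD0325901. The other 5 of the 12 were ETV4, DUSP6, MAFF, EGR1 and SPRY4. Outside that group, CLDN2, a tight junction protein of leaky epithelia, had 1245 reads in the PI103 libraries together and 11 with PD0325901, with 5.13, 5.45, 5.16 and 4.78 CPM per PI103 library and no PD0325901 library above 0.1 CPM. Its changes were 0.36 (not called, adjusted p 0.256) with PI103 and -6.41 with PD0325901. ITGA2, the collagen-binding integrin alpha 2, and ANKRD1, a target of YAP, differed by 2.65 (adjusted p 1.89e-10, SE 0.196) and 2.68 (adjusted p 5.92e-07, SE 0.322), and both were below control with each drug.

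**Figure D3:**
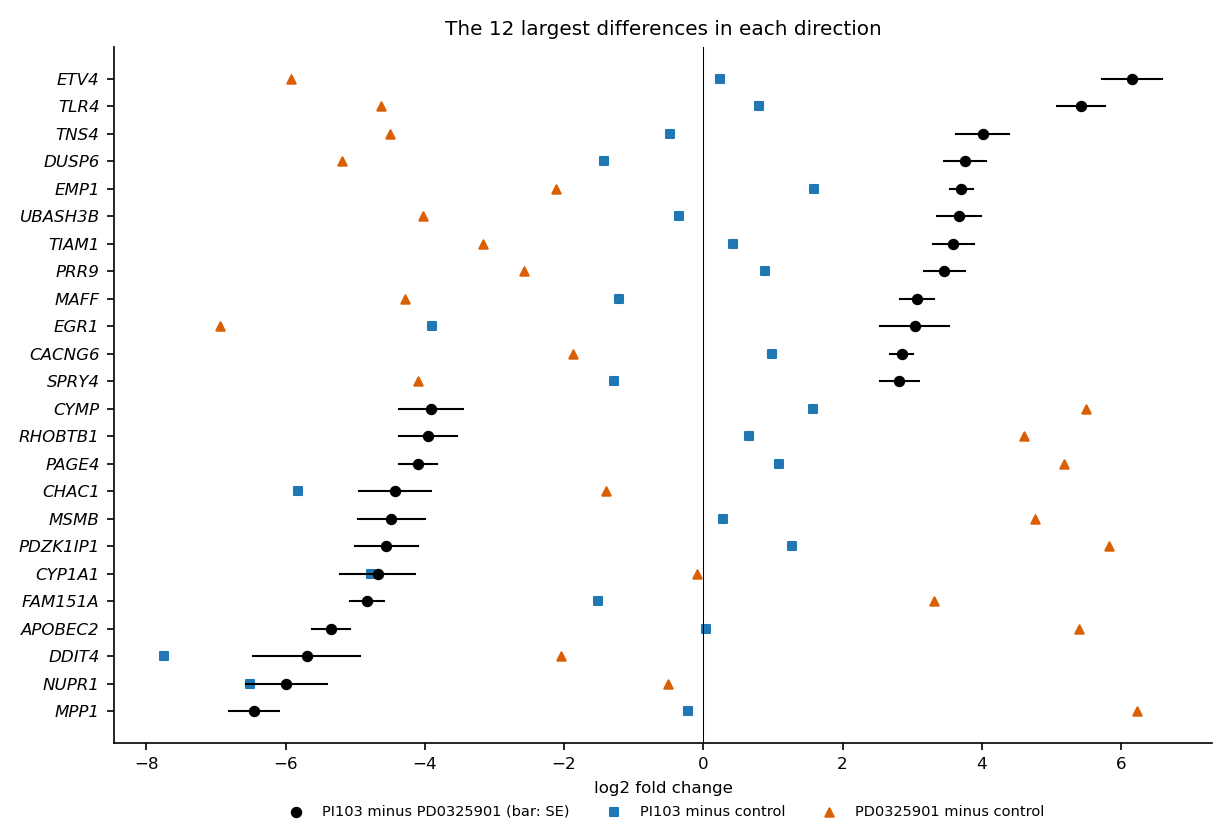
Log2 fold changes of the 12 genes with the largest difference in each direction between the treatments, among calls with a mean of at least 5 CPM and no overlap of groups (black circles, bars are SE), with each drug against control (squares PI103, triangles PD0325901). EMP1 lies on opposite sides of control with the 2 drugs, and APOBEC2 and MPP1 lie close to 0 with PI103 and above 5 with PD0325901.

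Of the 12 genes lowest with PI103 relative to PD0325901 under the same ranking rule, 3 belong to the ATF4 response (NUPR1, DDIT4 and CHAC1, below), and of the other 9, 8 rose with PD0325901, 5 of them with no call against control for PI103. MPP1, a membrane scaffold of the MAGUK family, held 0.169, 0.173, 0.309 and 0.194 CPM with PI103 and 0.194, 0.447, 0.220 and 0.158 CPM in control, against 14.2, 25.2, 18.97 and 16.02 CPM with PD0325901. The difference was -6.45 (adjusted p 1.79e-12, SE 0.361). APOBEC2, a member of the cytidine deaminase family, held 1.12, 1.13, 0.857 and 1.32 CPM with PI103, 1.07, 1.04, 1.03 and 1.17 CPM in control and 36.6, 66.1, 37.8 and 40.7 CPM with PD0325901, with a difference of -5.35 (adjusted p 8.04e-13, SE 0.277). The ranking rule itself keeps the PI103 and PD0325901 values apart, and both genes reached its mean of 5 CPM only through PD0325901. For both, every PD0325901 library was also above every control library, and replicate 2 was the highest.

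PDZK1IP1, a membrane protein known as MAP17, also rose with PD0325901 and differed by -4.55 (adjusted p 4.37e-08, SE 0.454). Its PD0325901 values were 14.5, 42.9, 17.5 and 15.7 CPM, and its changes were 1.27 (not called, adjusted p 0.0612) with PI103 and 5.83 with PD0325901. MSMB, the secreted beta-microseminoprotein, differed by -4.48 (adjusted p 8.66e-08, SE 0.486), and RHOBTB1, a BTB domain protein, by -3.95 (adjusted p 4.52e-08, SE 0.411). MSMB changed by 0.28 (not called, adjusted p 0.705) with PI103 and 4.76 with PD0325901 and RHOBTB1 by 0.65 (not called, adjusted p 0.249) with PI103 and 4.61 with PD0325901. PAGE4, a cancer/testis antigen family member, rose with both drugs but far less with PI103: it differed by -4.10 (adjusted p 5.85e-11, SE 0.279), with changes of 1.08 with PI103 and 5.18 with PD0325901. CYMP, the human chymosin pseudogene, differed by -3.91 (adjusted p 5.52e-07, SE 0.466). Another gene on its strand shares 55.3% of its exons, so its reads are uncertain. FAM151A fell with PI103 and rose with PD0325901, with changes of -1.51 and 3.32, and an antisense neighbour covers 37.9% of its exons. Its difference was -4.83 (adjusted p 2.16e-13, SE 0.251). CYP1A1, the monooxygenase induced by the aryl hydrocarbon receptor, went the other way from most: it held 0.477, 0.503, 0.411 and 0.452 CPM with PI103, 12.7, 19.4, 7.94 and 7.41 CPM with PD0325901 and 14.3, 14.04, 9.53 and 12.8 CPM in control. Every PI103 library was far below control, while the PD0325901 libraries spanned the control level, with replicate 2 above it. The difference was -4.68 (adjusted p 3.38e-07, SE 0.536), and the changes were -4.77 with PI103 and -0.095 (not called, adjusted p 0.854) with PD0325901.

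The ATF4 targets were lower with PI103 than with PD0325901, and low with both. Of the 26 listed genes, 25 were tested and VLDLR is listed at 0. Of those tested, 0 were called higher with PI103, 22 lower and 3 not called, with a median of -1.85. The calls against control were 0 higher and 24 lower with PI103 (median -3.26), and 0 higher and 23 lower with PD0325901 (median -1.79). Without PD0325901 replicate 2, 22 were again called lower, with a median of -1.88. The mean log2 CPM of the 25 genes, relative to the mean of control, was -4.06, -3.99, -4.21 and -4.17 in the PI103 libraries and -1.26, -2.29, -1.63 and -1.97 in the PD0325901 libraries, and the groups did not overlap. Replicate 2 was the lowest of the PD0325901 libraries. ATF4 itself held 357, 367, 321 and 339.9 CPM with PI103, 508, 380.0, 572 and 498 CPM with PD0325901 and 759, 810.2, 726 and 868 CPM in control, and its difference was -0.50 (adjusted p 0.000214, SE 0.100).

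ASNS, asparagine synthetase, held 27.3, 34.1, 24.9 and 25.8 CPM with PI103, 487, 188, 382 and 349 CPM with PD0325901 and 1162, 1767, 1269 and 1798 CPM in control. The 3 groups did not overlap, and the difference was -3.65 (adjusted p 1.53e-07, SE 0.394). A same-strand gene shares 44.6% of its exons, so its reads are in part uncertain. DDIT4, the mTOR inhibitor REDD1, held 2.63, 3.99, 2.64 and 3.20 CPM with PI103 and 227, 102, 185 and 133 CPM with PD0325901, a difference of -5.70 (adjusted p 6.59e-06, SE 0.771). An antisense gene lies opposite 41.2% of its exon length. NUPR1, a stress-induced chromatin factor, held 0.338, 0.226, 0.206 and 0.226 CPM with PI103, 25.3, 9.70, 17.2 and 12.3 CPM with PD0325901 and 20.4, 25.1, 18.1 and 28.2 CPM in control. The PD0325901 and control values of NUPR1 overlapped (change -0.51, not called, adjusted p 0.284), while every PI103 library was far below both (difference -5.99, adjusted p 3.01e-08, SE 0.582). CHAC1, which degrades glutathione, differed by -4.43 (adjusted p 9.58e-07, SE 0.519), and CTH, which makes cysteine, by -3.39 (adjusted p 9.82e-08, SE 0.357). CHAC1 changed by -5.83 with PI103 and -1.40 with PD0325901 and CTH by -5.40 with PI103 and -2.004 with PD0325901.

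Reads of 4 members nearly vanished with PI103, so their fitted values depend on the added prior count and the reads are given instead. INHBE, an activin subunit of liver, had 10 reads in the 4 PI103 libraries together against 1766 in the 4 PD0325901 libraries, a rate 174 times as high with PD0325901 (exact 95% interval 94.7 to 365). TRIB3, a pseudokinase that binds AKT, had 18 reads in the 4 PI103 libraries together against 347 in the 4 PD0325901 libraries, a rate 19.1 times as high with PD0325901 (exact 95% interval 11.9 to 32.5). FGF21, a secreted metabolic hormone, had 3 reads in the 4 PI103 libraries together against 440 in the 4 PD0325901 libraries, a rate 145 times as high with PD0325901 (exact 95% interval 49.3 to 706). STC2, the glycoprotein stanniocalcin 2, had 1 read in the 4 PI103 libraries together against 110 in the 4 PD0325901 libraries, a rate 109 times as high with PD0325901 (exact 95% interval 19.1 to 4333). These intervals cover counting error only, and the adjusted p-values of the 4 were 0.000171, 0.000228, 0.00067 and 2.54e-05. INHBE varied widely within PD0325901, where it held 16.6, 3.18, 6.11 and 4.17 CPM, replicate 1 the highest. Leaving out that replicate moved its fitted log2 difference from -7.44 to -6.74, and that of FGF21 from -7.02 to -6.14. Leaving out PI103 replicate 1 moved that of FGF21 to -7.93, and leaving out PI103 replicate 3, which held its only read in that group, moved that of STC2 from -6.19 to -7.80.

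Of the other members, DDIT3, the factor CHOP, differed by -2.17 (adjusted p 1.58e-06, SE 0.282). PCK2, the mitochondrial PEP carboxykinase, and GPT2, the mitochondrial alanine transaminase, differed by -2.22 (adjusted p 1.45e-07, SE 0.249) and -1.85 (adjusted p 4.59e-11, SE 0.134). JDP2, an AP-1 repressor, differed by -2.66 (adjusted p 4.12e-07), SESN2 (sestrin 2) by -1.47 (adjusted p 1.83e-05), EIF4EBP1 (the repressor of eIF4E) by -1.14 (adjusted p 0.000169) and CEBPB, a partner of ATF4, by -1.14 (adjusted p 0.00387). XPOT, the tRNA exporter, PYCR1, of proline synthesis, CEBPG, another partner, GDF15, a stress cytokine, and ALDH18A1, also of proline synthesis, were lower with PI103, with differences between -0.86 (XPOT) and -0.44 (ALDH18A1). The 3 members without a call were ATF3 (-0.23, adjusted p 0.388), ATF5 (-0.23, adjusted p 0.316) and PPP1R15A (0.007, adjusted p 0.972). All 3 were below control with both drugs: PPP1R15A, the phosphatase subunit that reverses the stress response, changed by -2.19 with PI103 and -2.19 with PD0325901.

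The element that ATF4 binds with CEBP partners was looked for in RefSeq promoters of GRCh38.p14, as TGATGNAAN on either strand. Only the first promoter of each listed gene was searched, and all promoters were not matched to the lists by gene type or level. The element stood in 4 of the 20 tested ATF4 targets found there (ATF3, ASNS, CHAC1, FGF21, or 20%) and in 3.61% of all 35116 promoters. Of 12 aminoacyl-tRNA synthetases 5 held it (AARS, CARS, IARS, NARS, TARS, or 41.7%). So did 3 of 14 amino acid transporters (SLC3A2, SLC7A1, SLC38A1, or 21.4%). Of 11 serine, glycine and one-carbon enzymes 1 held it (MTHFD1L, or 9.09%). The stretches below show the element in capitals, as it reads on the gene's strand, for 3 ATF4 targets, 1 synthetase and 1 enzyme of folate metabolism. AARS and MTHFD1L were chosen for their element after their values were seen.

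ASNS, chr7:97872438-97872506, minus strand: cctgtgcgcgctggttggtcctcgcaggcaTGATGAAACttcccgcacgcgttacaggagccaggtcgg
CHAC1, chr15:40953231-40953299, plus strand: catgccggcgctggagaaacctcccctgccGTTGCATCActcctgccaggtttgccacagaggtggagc
FGF21, chr19:48755439-48755507, plus strand: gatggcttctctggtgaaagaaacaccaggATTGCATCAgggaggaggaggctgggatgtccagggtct
AARS, chr16:70289656-70289724, minus strand: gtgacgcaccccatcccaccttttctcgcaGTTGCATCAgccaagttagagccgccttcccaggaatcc
MTHFD1L, chr6:150866327-150866395, plus strand: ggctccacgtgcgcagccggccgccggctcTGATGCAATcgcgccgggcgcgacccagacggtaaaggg

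A matching element did not go with one size of difference. ASNS and CHAC1 differed by -3.65 and -4.43, AARS, the alanyl-tRNA synthetase, by -0.91 (adjusted p 1.79e-06), and MTHFD1L, the mitochondrial formate-tetrahydrofolate ligase, by -0.075 (adjusted p 0.751). MTHFD1L was lower than control with both drugs, with changes of -1.71 with PI103 and -1.64 with PD0325901. Other elements were searched in the same promoters. The CLEAR core of lysosomal genes stood in 5 of 26 lysosome and autophagy genes (19.2%, against 0.98% of all promoters). A FOXO element stood in 3 of 19 FOXO factors and targets (15.8%, against 3.42%). A sterol element stood in 1 of 18 genes of the sterol list (5.56%, against 1.13%).

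**Figure D4:**
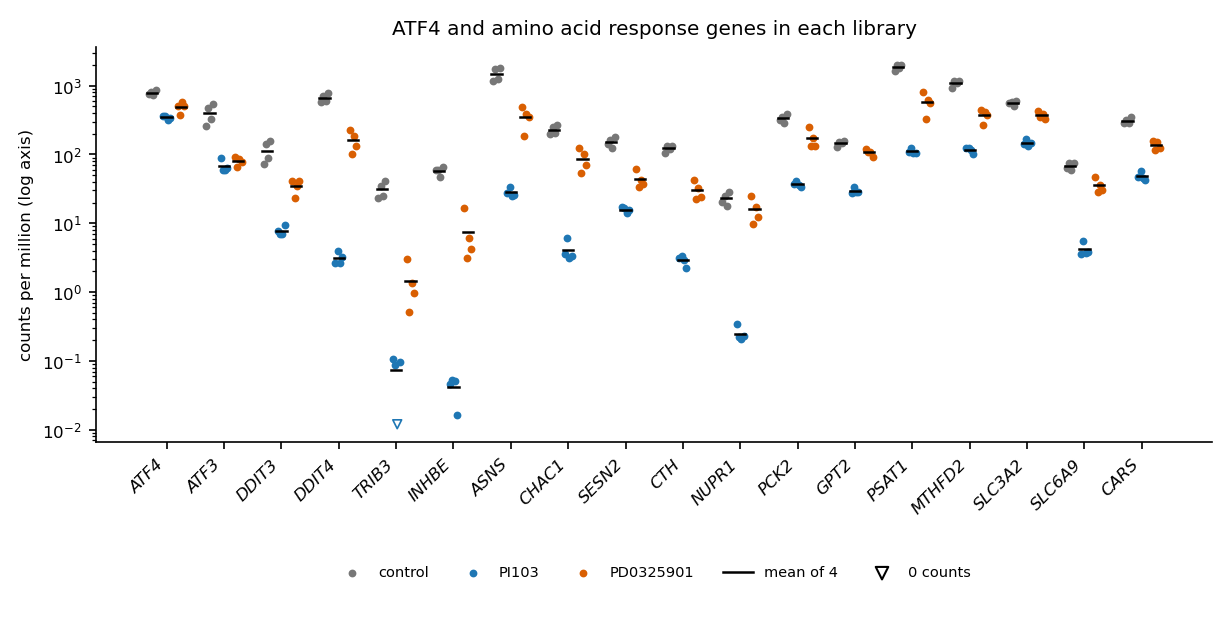
CPM (log axis) of ATF4 and 17 genes of the amino acid response in each library of control, PI103 and PD0325901, with bars at the means and open triangles for libraries with 0 counts. For ASNS, CHAC1 and CTH the PI103 libraries lie below the PD0325901 libraries and these below control.

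Genes that feed amino acids into translation were also lower with PI103 in part. Among amino acid transporters, 2 of 16 tested members were called higher with PI103, 9 lower and 5 not called, with a median log2 difference of -0.69, and only 1 was higher without PI103 replicate 3 or PD0325901 replicate 2. SLC3A2, the heavy chain shared by several transporters, held 143, 165, 133 and 146 CPM with PI103 and 429, 356, 386 and 329 CPM with PD0325901, without overlap, a difference of -1.36 (adjusted p 1.83e-10, SE 0.107). SLC6A9, a glycine transporter, and SLC1A4, a neutral amino acid transporter, differed by -3.10 (adjusted p 3.53e-10, SE 0.237) and -1.504 (adjusted p 4.03e-07, SE 0.182). SLC7A7, a partner of SLC3A2, differed by -1.23 (adjusted p 2.79e-10, SE 0.0993), and its changes were -0.084 (not called, adjusted p 0.494) with PI103 and 1.15 with PD0325901, so it rose with PD0325901. SLC7A11, the cystine transporter, and SLC7A5, the leucine transporter, which were named after their values were seen, differed by -3.499 (adjusted p 1.03e-05) and -1.28 (adjusted p 4.46e-07).

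Of the cytosolic aminoacyl-tRNA synthetases, 3 of 20 tested members were called higher with PI103, 11 lower and 6 not called, with a median log2 difference of -0.52. CARS, for cysteine, held 46.4, 57.8, 45.5 and 42.6 CPM with PI103, 158, 114, 150.1 and 124 CPM with PD0325901 and 286, 318, 285 and 354 CPM in control, and differed by -1.51 (adjusted p 7.84e-08, SE 0.165). GARS, WARS and YARS, for glycine, tryptophan and tyrosine, differed by -1.29 (adjusted p 4.91e-07), -1.21 (adjusted p 3.56e-09) and -1.18 (adjusted p 8.91e-07). The calls against control were 1 higher and 16 lower with PI103 (median -1.41), and 1 higher and 18 lower with PD0325901 (median -0.91).

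Serine, glycine and one-carbon enzymes split: 3 of 16 tested members were called higher with PI103, 6 lower and 7 not called, with a median log2 difference of -0.079. PSAT1 and PSPH, which complete serine synthesis, differed by -2.38 (adjusted p 1.84e-07, SE 0.271) and -2.02 (adjusted p 3.98e-08, SE 0.208). PSAT1 held 109, 124, 107 and 104 CPM with PI103, 802, 323, 623 and 566 CPM with PD0325901 and 1643, 1976, 1830.0 and 1998 CPM in control, 3 groups without overlap. MTHFD2, the mitochondrial folate enzyme, differed by -1.68 (adjusted p 8.14e-08, SE 0.183), with an antisense gene over 33.2% of its exons. GLDC, which breaks down glycine, held 5.24, 6.16, 5.28 and 7.33 CPM with PI103, 2.98, 4.51, 4.17 and 4.61 CPM in control and 41.2, 58.7, 47.8 and 59.2 CPM with PD0325901, so it rose with both drugs and further with PD0325901. Its difference was -3.11 (adjusted p 1.09e-10, SE 0.222).

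Receptors and adaptors upstream of PI3 kinase were mostly higher with PI103 than with PD0325901. In the list of receptor tyrosine kinases and insulin receptor substrates, 12 of 16 tested members were called higher with PI103, 3 lower and 1 not called, with a median log2 difference of 0.49. The calls against control were 10 higher and 3 lower with PI103 (median 0.44), and 6 higher and 5 lower with PD0325901 (median -0.0029). IRS1, the adaptor of the insulin and IGF1 receptors, held 79.5, 82.8, 84.7 and 81.3 CPM with PI103, 33.4, 25.5, 26.7 and 31.9 CPM with PD0325901 and 66.6, 73.1, 75.98 and 74.9 CPM in control, with a difference of 1.48 (adjusted p 4.56e-10, SE 0.123). All PI103 libraries of IRS1 were above all control libraries, although that change was not called (0.18, adjusted p 0.227). ERBB3, a receptor that couples to PI3 kinase, held 86.7, 84.8, 87.9 and 92.2 CPM with PI103 and 46.5, 57.7, 43.8 and 45.7 CPM with PD0325901, a difference of 0.86 (adjusted p 1.61e-08, SE 0.0884), with changes of 1.12 with PI103 and 0.26 with PD0325901. INSR, the insulin receptor, held 28.9, 27.6, 28.6 and 28.98 CPM with PI103 and 19.6, 19.7, 14.3 and 16.3 CPM with PD0325901, and differed by 0.71 (adjusted p 1.06e-05, SE 0.111). AXL, the receptor of GAS6, differed by 1.88 (adjusted p 1.66e-07, SE 0.223). FGFR4, a receptor of FGF ligands, and GRB10, an adaptor that restrains the insulin receptor, were lower with PI103, with differences of -0.72 (adjusted p 1.31e-07, SE 0.0841) and -1.01 (adjusted p 2.21e-08, SE 0.106). IRS2 is listed at 0, and FGFR1 and KIT had at most 3 reads in a library.

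FOXO factors and their targets differed in both directions: 11 of 21 tested members were called higher with PI103, 5 lower and 5 not called, with a median log2 difference of 0.35, and SESN3 and PDK4 are listed at 0. FOXO1 held 15.9, 15.2, 15.6 and 14.4 CPM with PI103, 6.86, 7.55, 6.18 and 6.22 CPM with PD0325901 and 9.10, 10.3, 11.3 and 8.88 CPM in control, and differed by 1.19 (adjusted p 1.79e-09, SE 0.108). CCNG2, cyclin G2, TXNIP, which binds thioredoxin, and BCL6, a repressor of transcription, differed by 0.76 (adjusted p 9.83e-05), 1.09 (adjusted p 0.000341) and 0.60 (adjusted p 0.00858). Also higher with PI103 were the ubiquitin ligase FBXO32 (0.54), the death-promoting BBC3 (0.45) and BCL2L11 (0.43), the mTOR complex 2 subunit RICTOR (0.42), RBL2 (0.40), the CDK inhibitor CDKN1B (0.36) and KLF6 (0.35). The call of FBXO32 was lost in 7 of 17 alternatives, 6 of them with 1 library left out (every one but PI103 replicate 3 and PD0325901 replicate 2, adjusted p up to 0.13). BBC3 lost it without PD0325901 replicate 2 (0.0576), BCL6 without PI103 replicate 1 (0.0501), and KLF6 without replicate 1 of PI103 (0.0788) or of PD0325901 (0.0633). CAT, catalase, was lower with PI103: it held 73.01, 72.03, 73.7 and 61.2 CPM, against 57.1, 57.2, 68.4 and 60.2 CPM in control and 142, 229, 178 and 159 CPM with PD0325901 (difference -1.34, adjusted p 6.13e-09, SE 0.130). TRIM63 (-1.31), GADD45A (-0.53), SESN1 (-0.42) and CITED2 (-0.34) were also lower, and CITED2 lost its call in 6 of 17 alternatives, 5 of them with 1 library left out (PI103 replicates 2, 3 and 4 and PD0325901 replicates 2 and 3, adjusted p up to 0.157). No call was made for FOXO3 (0.028, adjusted p 0.853), FOXO4 (0.22, adjusted p 0.357), PIK3IP1 (-0.48, adjusted p 0.336), TNFSF10 (0.20, adjusted p 0.781) or SOD2 (-0.043, adjusted p 0.749). FOXO4 was called without PD0325901 replicate 2 (0.43, adjusted p 0.0437). TNFSF10, which had 33 reads with PI103 and 29 with PD0325901, differed by 0.83 without that library (adjusted p 0.241). FOXO4 and PIK3IP1 were above control with each drug, FOXO4 by 1.38 with PI103 and 1.16 with PD0325901 and PIK3IP1 by 1.74 with PI103 and 2.22 with PD0325901.

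Among genes for the inhibited kinases and their partners, 4 of 26 tested members were called higher with PI103, 7 lower and 15 not called, with a median log2 difference of -0.0084. PIK3R3, a regulatory subunit of PI3 kinase, held 2.15, 2.57, 2.13 and 1.599 CPM with PI103, 3.32, 2.44, 4.21 and 2.81 CPM in control and 9.52, 19.4, 11.1 and 10.1 CPM with PD0325901, a difference of -2.57 (adjusted p 1.07e-09, SE 0.222). PIK3R2, whose exons overlap a same-strand gene over 87.2% of their length, was lower with PI103, at -0.62 (adjusted p 1.67e-06), and PIK3CA, the catalytic subunit p110 alpha, was higher by 0.54 (adjusted p 0.000153). The shares of these genes called in each direction were near those of all genes.

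Cell cycle genes were higher with PI103 than with PD0325901. Of DNA replication and E2F genes, 27 of 31 tested members were called higher with PI103, 0 lower and 4 not called, with a median log2 difference of 0.61, and of mitosis genes, 27 of 30 tested members were called higher with PI103, 0 lower and 3 not called, with a median log2 difference of 0.87. Relative to control, the calls among replication genes were 17 higher and 2 lower with PI103 (median 0.36), and 0 higher and 11 lower with PD0325901 (median -0.20), and those among mitosis genes were 9 higher and 0 lower with PI103 (median 0.40), and 0 higher and 18 lower with PD0325901 (median -0.503). The mean log2 CPM of the 30 mitosis genes, relative to control, was 0.40, 0.34, 0.41 and 0.39 with PI103 and -0.46, -1.05, -0.31 and -0.29 with PD0325901. All PI103 libraries lay above the control mean and all PD0325901 libraries below it, and PD0325901 replicate 2 was the lowest by far. Without that library 21 mitosis and 22 replication genes were called higher with PI103 and none lower, with medians of 0.66 and 0.45. In bulk libraries, fewer cycling cells and less RNA per cell cannot be told apart.

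CENPF, a kinetochore protein, held 279.8, 297, 337 and 325 CPM with PI103 and 119.5, 85.9, 105 and 135 CPM with PD0325901, without overlap, and differed by 1.48 (adjusted p 9.96e-06, SE 0.224). KIF11, the mitotic kinesin, ANLN, of the cleavage furrow, and CDC25C, which activates CDK1, differed by 1.09 (adjusted p 2.28e-05), 1.06 (adjusted p 3.49e-06) and 1.28 (adjusted p 1.21e-05). MCM7, of the replicative helicase, held 261, 279.6, 247 and 243 CPM with PI103, 134, 103, 144 and 132 CPM with PD0325901 and 182, 126, 147 and 134 CPM in control, and differed by 1.01 (adjusted p 5.79e-07, SE 0.129). Its relatives MCM2 and MCM5 differed by 0.94 (adjusted p 2.28e-06) and 0.87 (adjusted p 1.02e-06), and the repressor E2F7 by 1.55 (adjusted p 1.66e-07). Of G1 cyclins and CDK inhibitors, 7 of 14 tested members were called higher with PI103, 2 lower and 5 not called, with a median log2 difference of 0.26. CDKN1C, the inhibitor p57, rose with both drugs: it held 4.70, 5.65, 5.04 and 5.72 CPM with PI103 and 12.7, 35.6, 17.6 and 14.9 CPM with PD0325901, against 0.680, 0.857, 1.22 and 1.09 CPM in control, and its difference was -1.94 (adjusted p 2.28e-06, SE 0.263). CDKN2B, p15, was lower with PI103 (-0.96, adjusted p 9.58e-07) and CDKN2D, p19, higher (1.03, adjusted p 8.48e-06).

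Genes of nucleotide synthesis and ribosome biogenesis that were called were higher with PI103, with 1 exception. Over all tested genes 44.5% were called and 21.7% were higher with PI103. Of purine and pyrimidine enzymes, 12 of 21 tested members were called higher with PI103, 0 lower and 9 not called, with a median log2 difference of 0.32, and without PD0325901 replicate 2 the number higher was 8. PFAS, of purine synthesis, RRM2, of deoxynucleotide synthesis, and CAD, which starts pyrimidine synthesis, differed by 0.89 (adjusted p 4.56e-05), 0.69 (adjusted p 0.000212) and 0.49 (adjusted p 0.000885), and IMPDH2, of guanine nucleotide synthesis, by 0.40 (adjusted p 0.00478). Of ribosome biogenesis genes, 17 of 40 tested members were called higher with PI103, 1 lower and 22 not called, with a median log2 difference of 0.27. The share of this list called in either direction was near that of all tested genes. Without PD0325901 replicate 2 only 8 were called higher and 2 lower, with a median of 0.15. That fit called 2526 of all 14081 tested genes higher, a similar share. UTP20, of the small subunit processome, NCL, nucleolin, and UBTF, which activates RNA polymerase I, differed by 0.72 (adjusted p 0.000442), 0.54 (adjusted p 0.000369) and 0.50 (adjusted p 8.79e-05), and DKC1, the pseudouridine synthase dyskerin, was lower with PI103 (-0.53, adjusted p 0.000149). Most ribosome biogenesis genes lay below control with both drugs. With PI103 1 was called higher and 35 lower (median -0.64), and with PD0325901 0 higher and 38 lower (median -0.92). Among purine and pyrimidine enzymes the calls against control were 4 higher and 8 lower with PI103, and 0 higher and 15 lower with PD0325901. UBTF, unlike most of its list, rose with PI103 (0.59) while its change with PD0325901 was 0.09 (not called, adjusted p 0.42).

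Cytosolic ribosomal protein genes were mostly not called: 4 of 76 tested members were called higher with PI103, 0 lower and 72 not called, with a median log2 difference of -0.0093. The 4 called were RPL4, RPL23A, RPL10 and RPL13A, with differences of 0.25 to 0.30. Without PD0325901 replicate 2 none of the 76 was called higher and 4 were called lower, without PD0325901 replicate 1 only 1 was higher, and the replicate block over 24 libraries or leaving out PI103 replicate 4 gave 1 lower. RPL13A also lost its call in 10 other alternatives. Many of these genes have near-identical copies, whose reads the counting may have dropped or split. Of translation factors, 5 of 29 tested members were called higher with PI103, 2 lower and 22 not called, with a median log2 difference of 0.13. These counts moved with the fit: the replicate block over 24 libraries gave 11 higher and 2 lower. Leaving out PD0325901 replicate 2 gave 3 higher and 5 lower with a median of 0.034, PD0325901 replicate 3 gave 8 higher, PD0325901 replicate 4 gave 2 higher, and PI103 replicate 2 gave 3 higher. EIF4B and EIF2S2, a subunit of eIF2, differed in opposite directions, by 0.55 (adjusted p 4.57e-05) and -0.68 (adjusted p 1.15e-05). Polyamine genes had 2 higher, 1 lower and 7 not called of 10 tested (median -0.037), and without PD0325901 replicate 2 they had 1 higher and 4 lower. SAT1, which acetylates spermidine, differed by 0.92 (adjusted p 3.7e-06) and ARG2, the mitochondrial arginase, by -0.43 (adjusted p 0.000654), while ODC1, the first enzyme of the path, differed by -0.14 (adjusted p 0.217). ODC1 was below control with both drugs, by -0.94 with PI103 and -0.80 with PD0325901.

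Most sterol synthesis genes were lower with PI103 than with PD0325901. In this list, 2 of 25 tested members were called higher with PI103, 17 lower and 6 not called, with a median log2 difference of -0.47. The calls against control were 13 higher and 2 lower with PI103 (median 0.27), and 22 higher and 1 lower with PD0325901 (median 0.67). TM7SF2, a sterol reductase, held 28.3, 34.5, 27.5 and 33.1 CPM with PI103, 104, 137, 118 and 97.5 CPM with PD0325901 and 24.1, 27.3, 25.1 and 29.03 CPM in control, and differed by -1.89 (adjusted p 4.32e-12, SE 0.120). HMGCS1, which makes HMG-CoA, held 368, 454, 436 and 429.9 CPM with PI103 and 589, 1135, 812 and 730.0 CPM with PD0325901, and differed by -0.95 (adjusted p 0.000142, SE 0.181). MVD, of the mevalonate path, differed by -1.23 (adjusted p 2.54e-08), and ACAT2, whose exons lie opposite other genes over 52.3% of their length, by -1.29 (adjusted p 8.74e-09).

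Fatty acid genes had 3 higher, 9 lower and 4 not called of 16 tested (median -0.25). ACSS2, which makes acetyl-CoA from acetate, differed by -1.37 (adjusted p 1.3e-09, SE 0.122), and its changes were 0.023 (not called, adjusted p 0.887) with PI103 and 1.40 with PD0325901. SCD, the stearoyl-CoA desaturase, and ACSL1, an acyl-CoA synthetase, fell with PI103 and rose with PD0325901, with differences of -0.66 (adjusted p 2.3e-05) and -1.09 (adjusted p 5.03e-07). ME1, the malic enzyme that makes NADPH, had 5 reads in the 4 PI103 libraries together against 60 in the 4 PD0325901 libraries, a rate 11.9 times as high with PD0325901 (exact 95% interval 4.81 to 37.9). That interval covers counting error only, and the adjusted p of ME1, which takes in the spread between libraries, was 2.21e-05.

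Central carbon metabolism genes were called in both directions, but the called shares of the pentose phosphate list (3 of 7) and the tricarboxylic acid list (12 of 25) were near the 44.5% of all tested genes, and nothing is read from them. Glucose uptake and glycolysis had 7 higher, 7 lower and 9 not called of 23 tested (median -0.062). SLC2A1, the main glucose transporter, was lower than control with both drugs (-0.59 with PI103 and -1.86 with PD0325901) and higher with PI103 than with PD0325901 by 1.27 (adjusted p 1.25e-07, SE 0.148). PFKP, the platelet phosphofructokinase, rose with PI103 and fell with PD0325901 (difference 1.12, adjusted p 2.94e-08, SE 0.119). SLC16A1, a lactate transporter, differed by 0.60 (adjusted p 5.53e-06). ALDOC, an aldolase, held 4.07, 6.05, 3.87 and 4.76 CPM with PI103, 24.6, 40.5, 29.7 and 27.3 CPM with PD0325901 and 9.75, 9.24, 11.1 and 10.1 CPM in control, so it fell with one drug and rose with the other (difference -2.70, adjusted p 6.2e-12, SE 0.171).

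The pentose phosphate list had 1 higher, 2 lower and 4 not called of 7 tested (median -0.14), with PGD at -0.24 (adjusted p 0.0271), RPIA at 0.48 (adjusted p 0.0185) and RPE at -0.18 (adjusted p 0.0901). PGD lost its call in 6 of 17 alternatives, with the replicate block over the 8 libraries (adjusted p 0.0523) and without PI103 replicates 1, 3 or 4 or PD0325901 replicates 3 or 4 (up to 0.091). RPE was called with the replicate block over 24 libraries (adjusted p 0.032), and RPIA lost its call without PD0325901 replicate 2 (adjusted p 0.108). The tricarboxylic acid list had 2 higher, 10 lower and 13 not called of 25 tested (median -0.19), and without PD0325901 replicate 2 only 1 was higher. IDH1, the cytosolic isocitrate dehydrogenase, held 284, 315, 317 and 329 CPM with PI103, 980.3, 1116, 1109 and 1182 CPM with PD0325901 and 511, 593, 603 and 568 CPM in control. It fell with PI103 (-0.87) and rose with PD0325901 (0.95), and the difference was -1.82 (adjusted p 2.59e-12, SE 0.112). ACO1, the cytosolic aconitase, PDK1, which shuts off pyruvate dehydrogenase, and DLD, a subunit of it, differed by -1.03 (adjusted p 2.26e-07), -1.06 (adjusted p 7.25e-10) and -0.51 (adjusted p 1.24e-05).

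Hypoxia-inducible factor targets had 4 higher, 8 lower and 6 not called of 18 tested (median -0.26). VEGFA, the vascular growth factor, was below control with both drugs (-3.09 with PI103 and -1.61 with PD0325901) and lower with PI103, with a difference of -1.47 (adjusted p 4.52e-08, SE 0.157). ADM, adrenomedullin, differed by -4.16 (adjusted p 1.27e-08, SE 0.417), with changes of -0.21 (not called, adjusted p 0.741) with PI103 and 3.95 with PD0325901. BHLHE40, a repressor of the circadian clock, differed by 1.25 (adjusted p 1.13e-09).

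Chaperones of the endoplasmic reticulum were lower with PI103: 0 of 22 tested members were called higher with PI103, 18 lower and 4 not called, with a median log2 difference of -0.63. The calls against control were 7 higher and 5 lower with PI103 (median -0.042), and 15 higher and 5 lower with PD0325901 (median 0.64). HERPUD1, of protein degradation at that membrane, fell with both drugs and further with PI103 (-1.23, adjusted p 2.03e-07). CRELD2 and MANF, secreted when the reticulum is stressed, rose with each drug and less with PI103, with differences of -1.18 (adjusted p 8.39e-08, SE 0.133) and -0.97 (adjusted p 3.45e-06, SE 0.139). HYOU1, a large chaperone, differed by -0.87 (adjusted p 1.36e-06), with changes of -0.24 (not called, adjusted p 0.0824) with PI103 and 0.62 with PD0325901.

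Lysosome and autophagy genes had 4 higher, 14 lower and 21 not called of 39 tested (median -0.16). The share called was near the 44.5% of all tested genes. Against control the calls were 18 higher and 7 lower with PI103 (median 0.13). With PD0325901 they were 23 higher and 4 lower (median 0.41). WIPI1, of autophagosome formation, NEU1, the lysosomal sialidase, and MITF, a factor that drives lysosomal genes, differed by -1.85 (adjusted p 1.28e-07, SE 0.209), -1.47 (adjusted p 4.52e-08, SE 0.156) and -1.36 (adjusted p 3.7e-06, SE 0.193). NEU1 changed by 0.046 (not called, adjusted p 0.823) with PI103 and 1.52 with PD0325901, and MITF by -0.22 (not called, adjusted p 0.346) with PI103 and 1.14 with PD0325901. GABARAPL1, of autophagosomes, was higher with PI103 (0.66, adjusted p 1.78e-07).

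NRF2 and glutathione genes had 3 higher, 10 lower and 9 not called of 22 tested (median -0.18). HMOX1, heme oxygenase 1, held 30.6, 31.9, 29.1 and 32.7 CPM with PI103, 192, 219, 162 and 156 CPM with PD0325901 and 55.0, 45.7, 44.9 and 48.7 CPM in control. The 3 groups did not overlap, PI103 lying below control and PD0325901 above it, and the difference was -2.55 (adjusted p 1.03e-13, SE 0.125). ABCC3, an export pump, differed by 1.19 (adjusted p 4.4e-08, SE 0.130), with changes of 1.33 with PI103 and 0.13 (not called, adjusted p 0.402) with PD0325901.

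Interferon, antigen presentation and complement genes were mostly above control with each drug, and those that differed were mostly lower with PI103: 2 of 33 tested members were called higher with PI103, 15 lower and 16 not called, with a median log2 difference of -0.27, and the calls against control were 24 higher and 1 lower with PI103 (median 0.50), and 30 higher and 2 lower with PD0325901 (median 0.80). PSMB8, an immunoproteasome subunit, TAP1, a peptide transporter, and IFI6, an interferon-induced gene, differed by -1.12 (adjusted p 8.68e-09, SE 0.111), -0.72 (adjusted p 7.69e-06, SE 0.111) and -1.04 (adjusted p 2.29e-07, SE 0.126). CFB, complement factor B, held 2.998, 1.82, 1.85 and 2.10 CPM with PI103 and 6.86, 10.3, 6.42 and 5.23 CPM with PD0325901, against 0.356, 0.279, 0.489 and 0.341 CPM in control (difference -1.71, adjusted p 3.16e-06, SE 0.239), and shares 45.5% of its exon length with same-strand genes. In the chemokine and NF-kB list none was called higher with PI103 (1 with the replicate block over 24 libraries) and 7 of 16 lower, among them RELB, an NF-kB subunit, with -1.77 (adjusted p 6.27e-07, SE 0.224), CXCL3 with -1.04 (adjusted p 0.000604), CXCL16 with -0.78 (adjusted p 2.4e-05) and ICAM1 with -0.40 (adjusted p 0.00035). Over all tested genes 44.5% were called and 22.9% were lower with PI103. The share of the chemokine list called in either direction was near that of all genes, and that of the interferon list was somewhat above it.

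Wnt and beta-catenin targets had 9 higher, 3 lower and 2 not called of 14 tested (median 0.72). NKD1 and NOTUM, inhibitors that Wnt induces, were higher with PI103 by 2.14 (adjusted p 4.9e-12, SE 0.137) and 1.41 (adjusted p 1.85e-09, SE 0.128), and each rose with PI103 and fell with PD0325901, NKD1 by 1.15 with PI103 and -0.996 with PD0325901, and NOTUM by 0.85 with PI103 and -0.56 with PD0325901. CD44, a hyaluronan receptor, differed by 1.38 (adjusted p 5.62e-09). DKK1, a secreted Wnt inhibitor, was lower with PI103 (difference -1.42, adjusted p 6.5e-11, SE 0.105) and rose with both drugs, by 0.43 with PI103 and 1.85 with PD0325901. TGF-beta and BMP targets had 7 higher, 1 lower and 3 not called of 11 tested (median 0.60). ID1, a target of BMP, and TGFBI, a matrix protein, rose with PI103 and fell with PD0325901, with differences of 1.44 (adjusted p 4.93e-07, SE 0.176) and 2.37 (adjusted p 5.34e-09, SE 0.219), while the inhibitors SMAD7 and SMAD6 differed by 0.91 (adjusted p 6.75e-10) and 0.81 (adjusted p 0.000255).

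Eph receptors and ephrins had 7 higher, 4 lower and 2 not called of 13 tested (median 0.27), and the median was 0.16 with the filter at 1 CPM in 4 libraries. EPHA4, a receptor of this family, rose with PI103 (0.74) and fell with PD0325901 (-1.34), a difference of 2.08 (adjusted p 3.54e-13, SE 0.112). EPHA1, EPHB2 and the ligand EFNA4 were lower with PI103, at -0.74 (adjusted p 4.52e-08), -0.63 (adjusted p 4.76e-06) and -0.86 (adjusted p 4.14e-07). YAP and TEAD targets had 6 higher, 2 lower and 4 not called of 12 tested (median 0.19). The calls against control were 3 higher and 5 lower with PI103 (median -0.26), and 1 higher and 8 lower with PD0325901 (median -0.41). ANKRD1, named above, was higher with PI103 than with PD0325901. F3, tissue factor, and the LIM protein AJUBA were the 2 lower with PI103, at -1.34 (adjusted p 1.25e-12) and -0.94 (adjusted p 5.31e-08). Of EGFR ligands and sheddases, with 2 higher, 3 lower and 3 not called of 8 tested (median -0.14), HBEGF differed by -0.69 (adjusted p 0.000249) and the sheddase ADAM17 by -0.54 (adjusted p 8.87e-06). Both were lower with PI103. Leaving out any 1 of the 8 libraries left 0 or 1 member higher, and 0 were left with the 8 libraries alone, without PI103 replicate 2, or without PD0325901 replicate 2 or 3. EREG, epiregulin, the other member lower with PI103 (-1.03, adjusted p 0.0389), lost its call in 7 of 17 alternatives, 5 of them with 1 library left out (PI103 replicates 1, 2 and 4 and PD0325901 replicates 2 and 3, adjusted p up to 0.116).

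Differentiation genes of stomach and intestine had 5 higher, 11 lower and 4 not called of 20 tested (median -0.30), and the median was -0.17 with the filter at 1 CPM in 4 libraries. CDH17, the intestinal cadherin, differed by -1.46 (adjusted p 2.54e-11, SE 0.102), with changes of -0.059 (not called, adjusted p 0.647) with PI103 and 1.40 with PD0325901. MUC13, a membrane mucin, differed by -1.55 (adjusted p 1.31e-07). CEACAM6, an adhesion molecule, differed by 1.44 (adjusted p 6.31e-07, SE 0.179), with changes of 1.11 with PI103 and -0.33 (not called, adjusted p 0.112) with PD0325901. KLF4, a factor of epithelial differentiation, was below control with both drugs (-1.34 with PI103 and -2.59 with PD0325901) and higher with PI103 by 1.24 (adjusted p 2.17e-07, SE 0.147). Keratins and epithelial-mesenchymal genes had 8 higher, 6 lower and 8 not called of 22 tested (median -0.016), and VIM, vimentin, rose with both drugs and further with PI103 (0.57, adjusted p 1.32e-05). In the plasminogen and metalloproteinase lists, with 5 higher, 3 lower and 1 not called of 9 tested (median 0.39), PLAT, the tissue plasminogen activator, rose with PI103 and fell with PD0325901 (difference 2.86, adjusted p 5e-09, SE 0.275), and MMP14 was lower with PI103 (-0.57, adjusted p 4.59e-05). Without PD0325901 replicate 2 only 1 of these members was lower, and the median was 0.14 with the filter at 1 CPM in 4 libraries, which left 3 higher, or with the 8 libraries alone.

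Among regulators of cell death, the BCL2 family had 5 higher, 3 lower and 5 not called of 13 tested (median 0.035). BCL2L1, which restrains BAX and BAK, and BOK, its death-promoting relative, were higher with PI103 by 0.51 (adjusted p 4.17e-05) and 0.54 (adjusted p 8.89e-06), and the death-promoting BAK1 and BIK lower, at -0.52 (adjusted p 8.71e-05) and -0.97 (adjusted p 8.05e-07). p53 targets had 6 higher, 4 lower and 7 not called of 17 tested (median 0.12), and 3 in place of 6 were higher without PD0325901 replicate 2, with a median of 0.018. TIGAR, listed as C12orf5, the fructose-bisphosphatase induced by p53, changed by -0.85 with PI103 and -0.016 (not called, adjusted p 0.848) with PD0325901, and differed by -0.83 (adjusted p 2.99e-10, SE 0.0673). It shares 42.6% of its exons with a same-strand gene. TP53INP1, of autophagy, and DDB2, of DNA repair, differed by -0.76 (adjusted p 1.43e-05) and 0.42 (adjusted p 0.000306).

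The 4 libraries given both drugs, each at 50% of its single concentration, show where the levels lay when the inhibitors were combined. They were no part of the differences above, but they entered the filter on low counts, the scaling and the shared estimate of the spread. For ERK-driven genes the combination lay below every PI103 library and overlapped PD0325901: ETV4 held 1.53, 0.101, 1.04 and 0.808 CPM, DUSP6 4.63, 1.63, 4.31 and 5.01 CPM and EGR1 2.29, 0.806, 1.75 and 1.43 CPM. For ATF4 targets it lay below every PD0325901 library, with ASNS at 30.7, 36.6, 35.8 and 41.05 CPM, NUPR1 at 0.713, 0.773, 0.477 and 0.525 CPM and CHAC1 at 4.59, 8.05, 4.89 and 3.92 CPM. ASNS and CHAC1 overlapped their PI103 values, and NUPR1 lay above them. Replicate 2 of the combination had the lowest of the 4 values in ETV4, DUSP6 and EGR1. Its mean level of mitosis genes relative to control was -1.46, against -0.37, -0.16 and -0.22 in replicates 1, 3 and 4. What sets replicate 2 apart in both groups with PD0325901 was not tested.

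**Figure D5:**
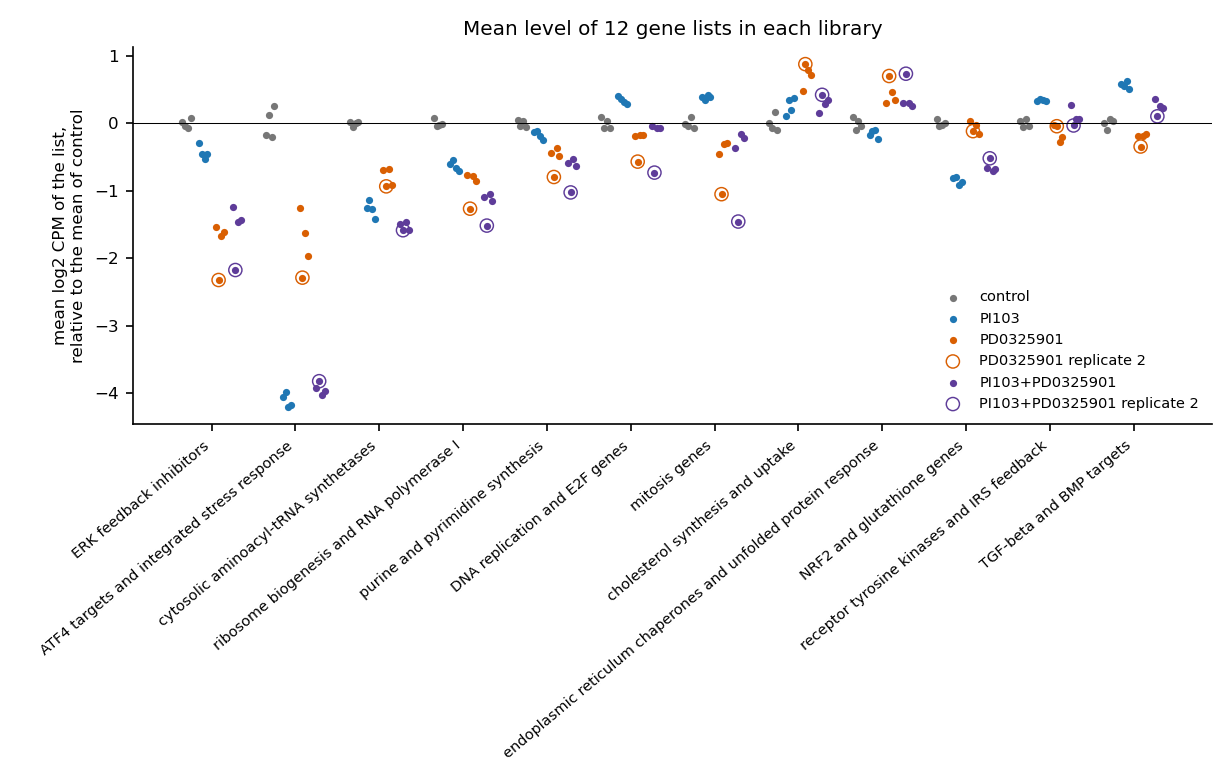
Mean log2 CPM of 12 gene lists in each library, relative to the mean of the 4 control libraries (line at 0), for control, PI103, PD0325901 and their combination. Rings mark replicate 2 of the groups with PD0325901. ATF4 targets and synthetases are lowest with PI103 and with the combination, ERK feedback inhibitors with PD0325901 and with the combination.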

How the data were processed

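Per the labels' protocols, the authors made stranded mRNA libraries from 0.8 µg of total RNA, and they deposited whole-number read counts per gene symbol. The genome build is GRCh38 per the submitters' processing notes, and the aligner, counter and annotation are not given in the sources used here. Without the 5 tallies (no feature 4.24% to 7.02% and not unique 4.64% to 5.71% of reads in these 8 libraries), 23368 genes were left, of which filterByExpr kept 13947.

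TMM scaling and edgeR 4.0.16 in R 4.3.3 were used (robust estimateDisp and glmQLFit, two-sided quasi-likelihood F test), with 1 coefficient per group over all 24 libraries. Benjamini-Hochberg adjustment ran over all tested genes, and an adjusted p under 0.05 is a call. SE is the size of the log2 fold change over the root of its F statistic. CPM use the TMM-scaled library size, and list means use log2 CPM with a prior count of 2. The script was tried on counts drawn at random for these genes, with known log2 changes of 1 or 2 in a small share of them. It recovered most changes of 2. Changes under 1, and changes in as many genes as differed here, were not tried. Exon overlaps come from GENCODE release 29 and promoters from RefSeq. P-values measure the spread between these cultures.

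The members and gene lists were chosen with earlier results of these data known. Genes named are the 12 largest differences per direction among calls with a mean of at least 5 CPM and no overlap, up to 4 members per list by adjusted p, 14 readout genes, and all members of 3 lists. Samples were grouped by their titles. In the labels the batch equals the replicate number, which pairs the samples. Deviations of same-numbered PI103 and PD0325901 libraries from their group means correlated at 0.0592 on average over 4 pairs (-0.0962 to 0.333), against -0.0206 over 12 other pairs. Such deviations cancel out within a group, so the second value follows largely from the first and is no separate comparison. Alternatives were RLE and upper-quartile scaling, other filters, DESeq2 1.42.0, limma-voom (3.58.1), the 8 libraries alone, the replicate block, a minimum change of 1, and leaving out each library.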

Additional observations from a re-analysis of the deposited data

Results flagged for a closer look

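For each of 206 genes with values in the text, the 4 libraries of PI103 and the 4 of PD0325901 were examined for a single library far from the other 3, with a gap to its neighbour above 0.829 of the range. Of 412 groups, 21 met this, and chance gives about 1 in 20 groups (5%). PD0325901 replicate 2 accounts for 9 of them. PD0325901 replicate 2 was the highest library of APOBEC2 (66.1 CPM against 36.6 to 40.7), CCNG2 (41.9 CPM against 26.2 to 28.8), CDKN2B (155 CPM against 98.2 to 104), PDZK1IP1 (42.9 CPM against 14.5 to 17.5) and PIK3R3 (19.4 CPM against 9.52 to 11.1). PD0325901 replicate 2 was also the highest library of RHOBTB1 (23.4 CPM against 7.63 to 9.18). PI103 replicate 1 was the highest library of ATF3 (89.2 CPM against 59.2 to 63.2), CDH17 (123 CPM against 107 to 109) and NUPR1 (0.338 CPM against 0.206 to 0.226). PI103 replicate 4 was the lowest library of CAT (61.2 CPM against 72.03 to 73.7), EIF4B (626 CPM against 734 to 739.9) and INHBE (0.0162 CPM against 0.0461 to 0.0520). PD0325901 replicate 2 was the lowest library of CXCL3 (4.74 CPM against 5.21 to 5.29), PSPH (71.5 CPM against 123 to 127) and RRM2 (137 CPM against 190.2 to 193). PI103 replicate 2 was the highest library of CHAC1 (6.14 CPM against 3.15 to 3.58) and SLC6A9 (5.55 CPM against 3.61 to 3.76). PD0325901 replicate 1 was the highest library of SLC7A11 (131 CPM against 62.4 to 65.6) and TXNIP (117 CPM against 40.6 to 52.9). PI103 replicate 4 was the highest library of PAGE4 (22.2 CPM against 11.8 to 13.5). PI103 replicate 3 was the highest library of STC2 (0.0171 CPM against 0 to 0). What sets these libraries apart was not tested.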

How the results depend on the processing

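When a log2 change of more than 1 was required, 656 genes were called in place of 6208, 211 higher and 445 lower with PI103. Under the other 17 alternatives the number stayed within 1.5 times. It was 6417 with DESeq2, 6228 with limma-voom, 5723 with the 8 libraries alone, and 5514 to 5981 when 1 library was left out (2526 to 2811 higher, 2825 to 3385 lower). With the replicate block it was 6891 over 24 libraries and 5750 over 8. Of 199 called genes that the naming rule picked, 184 kept the call in all 17, 15 lost it in at least 1, 83 passed the minimum change, and 0 reversed. Over 24 libraries the block ended none of these calls and added that of RPE. RHBDF2 and RPL13A lost their calls with the 8 libraries alone, both without the block (adjusted p 0.0635 and 0.0769) and with it (0.0655 and 0.0541). With those libraries FBXO32 lost its call without the block only (0.0633), and PGD with the block only (0.0523). The medians of the BCL2 family, ribosomal protein, keratin, polyamine and serine lists, all under 0.1 in size, changed sign for at least 1 choice of the library left out. The cause of lost calls was not tested. Levels under about 1 CPM rest on few reads, as given for INHBE, TRIB3, FGF21, STC2 and ME1.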
